A study of Mus musculus with 3 samples.

Results

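Chemokine receptors of lung macrophages are described here by 5 genes, Ccr1, Ccr2, Cx3cr1, Cxcr4 and Ccrl2, taken by gene symbol from 3 tables of pairwise comparisons. All 5 had a value in every library, out of 12880 genes with a value in any library. RNA was sequenced from macrophages of LysM-GFP mice on a C57BL/6 background, aged 6 to 8 weeks, after nebulized lipopolysaccharide (LPS) at 1 mg/ml. The groups were 0 h, 4 h and 24 h, with 1 library each. All samples carry the same treatment text, so whether the 0 h mice inhaled saline, LPS or nothing is not known, and the number of animals behind a library is not given in the sources used here. Lungs were digested for 50 minutes, and cells were sorted as GFP positive, Ly6g negative and CD64 positive. The LysM promoter that drives GFP is active across myeloid cells, neutrophils and monocytes included, so the reporter alone does not mark macrophages.

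Chemokine receptors are G protein-coupled receptors that steer leukocytes along gradients of small secreted chemokines. CCR2 carries classical monocytes out of the bone marrow and into inflamed tissue, CCR1 answers several inflammatory chemokines, and CXCR4 holds leukocytes in bone marrow and tissue niches through CXCL12. CX3CR1 binds fractalkine and marks non-classical monocytes and many tissue macrophages. CCRL2 is an atypical receptor that binds chemerin without classical signalling and presents it to cells bearing CMKLR1.

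The libraries held between 20379236 and 25135476 reads over 12512 to 12849 listed genes. Levels below are normalized read counts, that is, reads recovered from the deposited values and divided by a median-of-ratios size factor. A fold is the plain ratio of these counts, and a gene is called where that ratio is at least 2-fold. With 1 library per time there is no replicate check, no test was made, and every difference describes these libraries and not the conditions. The 95% intervals cover counting error only. Fcgr1, which encodes CD64, had levels of 2479, 7237 and 2887 at 0, 4 and 24 h, and the macrophage receptor gene Csf1r had 29976, 40025 and 29673. Among other surface genes, Itgam, which encodes the CD11b named in the column headings, had 7235, 33421 and 7385. Itgax, which encodes CD11c, had 46583, 15772 and 22539, and Siglec5 had 10997, 779 and 6211. Ptprc had 23843, 73267 and 34677, Cd68 had 21286, 13168 and 17754, and Emr1 had 11991, 11815 and 8680. Reads of Xist, which silences an X chromosome in female cells, numbered 13705, 4 and 1 at 0, 4 and 24 h. For Ddx3y on the Y chromosome the reads numbered 4, 3994 and 2357. The 0 h library therefore stands apart from both later ones, and for every comparison with 0 h the time and the sex of the mice cannot be told apart.

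In the mouse genome build mm10, 4 of the 5 genes lay on chromosome 9. Ccr1 occupied positions 123962126 to 123968692 on the minus strand and Ccr2 positions 124102183 to 124109140 on the plus strand, 133.491 kb apart. Cx3cr1 lay at 120048683 to 120068296 and Ccrl2 at 111054834 to 111057270, both on the minus strand. Cxcr4 lay on chromosome 1 at 128588199 to 128592299, minus strand. The RefSeq promoter windows of GRCm38.p6, 250 bases before to 50 bases after the transcription start, are shown for the receptors with the widest differences, Ccr1, Ccr2, Cxcr4 and Ccrl2. The windows span chr9:123968643-123968942 (minus strand) for Ccr1, chr9:124101933-124102232 (plus) for Ccr2, chr1:128592250-128592549 (minus) for Cxcr4 and chr9:111057469-111057768 (minus) for Ccrl2. Capitals mark matches, on either strand, to the NF-kappaB letters (GGG, any 5 bases, CC), the AP-1 letters TGANTCA, the PU.1 letters GAGGAA or the TATA box letters TATAAA.
Ccr1: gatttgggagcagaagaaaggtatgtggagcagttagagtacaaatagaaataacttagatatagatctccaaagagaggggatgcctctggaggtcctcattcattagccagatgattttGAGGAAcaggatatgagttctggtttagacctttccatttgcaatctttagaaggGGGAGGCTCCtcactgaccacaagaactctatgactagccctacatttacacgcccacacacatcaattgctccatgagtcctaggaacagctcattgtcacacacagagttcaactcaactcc
Ccr2: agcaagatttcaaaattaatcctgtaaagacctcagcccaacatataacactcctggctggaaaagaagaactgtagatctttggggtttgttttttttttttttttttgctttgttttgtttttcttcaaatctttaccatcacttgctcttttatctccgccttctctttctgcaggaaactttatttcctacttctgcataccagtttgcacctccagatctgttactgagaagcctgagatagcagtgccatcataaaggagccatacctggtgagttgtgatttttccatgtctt
Cxcr4: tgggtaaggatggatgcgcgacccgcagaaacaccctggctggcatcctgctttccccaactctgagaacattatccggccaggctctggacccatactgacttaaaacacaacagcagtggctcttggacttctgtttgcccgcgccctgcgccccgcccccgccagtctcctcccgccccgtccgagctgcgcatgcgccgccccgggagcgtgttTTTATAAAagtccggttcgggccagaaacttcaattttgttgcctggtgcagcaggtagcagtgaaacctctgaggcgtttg
Ccrl2: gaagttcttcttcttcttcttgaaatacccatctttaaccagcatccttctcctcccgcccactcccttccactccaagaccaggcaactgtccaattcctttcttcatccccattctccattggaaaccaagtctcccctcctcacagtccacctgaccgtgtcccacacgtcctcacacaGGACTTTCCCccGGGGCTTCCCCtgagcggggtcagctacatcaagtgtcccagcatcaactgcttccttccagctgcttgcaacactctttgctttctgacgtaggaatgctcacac

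The Ccr1 window held a PU.1 match whose first base lay at position -129 from the start and an NF-kappaB match at -74. The Ccr2 window held no match to any of these letters. It is set on a start at 124102183, while the RefSeq gene begins at 124101918, and the bases before that position were not searched. In the Cxcr4 window, TATA box matches on opposite strands overlapped at -32 and -30, and the letters GGGCGG of a GC box, which are not capitalised, occurred 3 times. The Ccrl2 window held an NF-kappaB match at -68, a separate group of overlapping ones on both strands at -56 and -55, and a GC box, not capitalised, at -195. The Cx3cr1 window, which is not printed, held a single NF-kappaB match at -174. RefSeq lists 2 further Ccrl2 starts, at 111057270 and 111057244, and their windows held no match. The start at 111057270 is that of the Ccrl2 positions given above, while the printed window is set on 111057518. These letters are common: 50.8% of 32851 promoter windows held the NF-kappaB letters, 28.3% the PU.1 letters, 13.6% the TATA box letters, 35.7% the GC box letters and 7.81% the AP-1 letters. Searches for the C/EBP letters TTGCNNAA, found in 10.8% of windows, and the interferon response letters (GAAA, any 2 bases, GAAA), found in 3.44%, gave no match in the 5 genes. A match is a description of the letters, and no match says only that these letters are not in this window.

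At 4 h against 0 h, Ccr2 and Ccr1 were at least 2-fold higher and none of the 5 was at least 2-fold lower. Across all 12512 genes 29.6% passed 2-fold in either direction, 15.2% higher and 14.3% lower, so 2 of 5 lies near the background. Between 24 h and 0 h, Ccr2 was called higher and Ccrl2 lower, beside 14.0% of all genes called, 4.92% higher and 9.06% lower. Between 24 h and 4 h, Cxcr4 was called higher and Ccr1, Ccr2 and Ccrl2 lower, beside 32.2% of all genes called, 14.4% higher and 17.9% lower. Other scalings moved the split of all genes. On ribosomal protein genes it was 1.71% higher and 24.0% lower between 24 h and 0 h, and 6.41% and 32.6% between 24 h and 4 h. By total reads it was 7.17% and 7.09% between 24 h and 0 h, and 23.2% and 12.5% between 24 h and 4 h. Cx3cr1 was called in none of the 3. The plot of levels by time point shows these courses for the 5 genes.

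**Figure D1:**
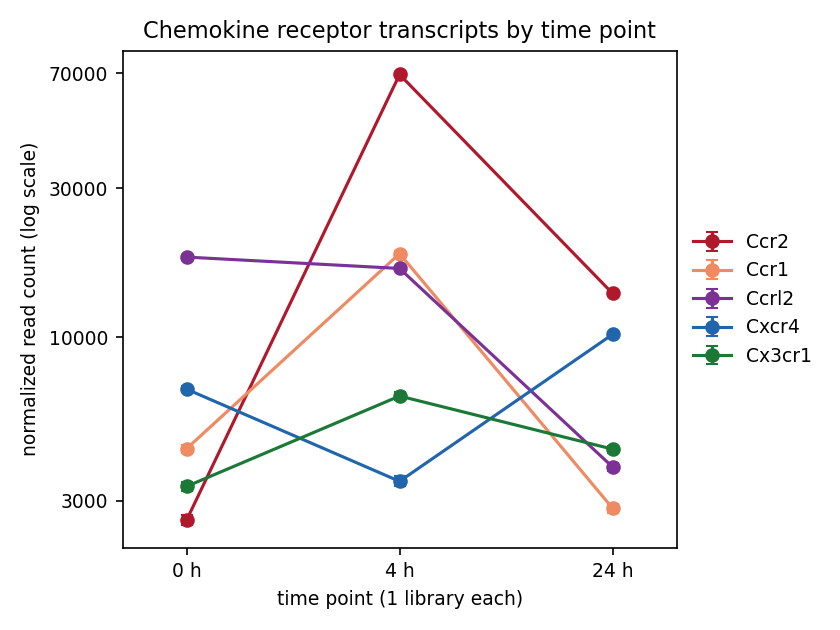
Normalized read counts of the 5 receptor genes (log scale) at 0, 4 and 24 h, 1 library each; bars are exact 95% Poisson intervals, mostly smaller than the points. Ccr2 reaches 69394 at 4 h, while Cxcr4 has its lowest level at that time and Ccrl2 its lowest at 24 h.

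Ccr2, the receptor for CCL2, CCL7 and CCL12, had levels of 2603, 69394 and 13826 at 0, 4 and 24 h. These rest on 2787, 54669 and 16826 reads. It was the lowest of the 5 genes at 0 h and the highest at 4 h, where it ranked 23rd among 12715 genes of that library, against 1872nd of 12512 at 0 h. The ratio was 26.7-fold (25.7 to 27.7) at 4 h over 0 h and 5.31-fold (5.10 to 5.53) at 24 h over 0 h. By ratio it stood 46th of 12512 genes at 4 h over 0 h and 34th of 12481 at 24 h over 0 h. At 24 h it was 5.02-fold lower (4.93 to 5.11) than at 4 h. In bulk RNA, fewer cells of a type and less RNA per cell cannot be told apart.

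Ccr1, a receptor for CCL3, CCL5 and, in mice, CCL6 and CCL9, had levels of 4406, 18543 and 2842 at 0, 4 and 24 h. Only the 4 h library was high, and the 24 h library was the lowest of all. Ccr1 was 4.21-fold higher (4.07 to 4.35) at 4 h than at 0 h and 6.53-fold lower (6.29 to 6.77) at 24 h than at 4 h. At 24 h it was 1.55-fold lower (1.48 to 1.62) than at 0 h, which passed 2-fold only when libraries were scaled on ribosomal protein genes. Ccr1 and Ccr2 thus shared their highest library, but Ccr2 was above its 0 h level at 24 h and Ccr1 below.

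Ccrl2, the chemerin-binding receptor, had levels of 18076, 16623 and 3851 at 0, 4 and 24 h. The 4 h and 0 h libraries were close, with 4 h 1.09-fold lower (1.06 to 1.11) than 0 h, and the 24 h library was low. At 24 h it was 4.69-fold lower (4.55 to 4.85) than at 0 h and 4.32-fold lower (4.18 to 4.46) than at 4 h. Within its library it ranked 1067th of 12849 genes at 24 h, against 156th of 12512 at 0 h, where it was the highest of the 5. By ratio at 24 h over 0 h it stood 180th from the bottom of 12481 genes.

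Cxcr4, the CXCL12 receptor, had levels of 6831, 3464 and 10230.4 at 0, 4 and 24 h. Its 4 h library was the lowest and its 24 h library the highest, which no other of the 5 genes showed. It was 2.95-fold higher (2.83 to 3.08) at 24 h than at 4 h. It was 1.97-fold lower (1.89 to 2.06) at 4 h than at 0 h, just inside the 2-fold limit. It was called lower when scaled by total reads, by trimmed mean of M values or by the authors' own size factors. That gives 2 higher and 1 lower of 5. Of all genes, 12.4% were then higher and 17.3% lower by total reads. The split was 14.6% and 14.9% by trimmed mean, and 14.8% and 14.9% by the authors' factors. Between 24 h and 0 h its log2 ratio was 0.58, a fold of between 1.45 and 1.54, and the fold was 1.03 when scaled on ribosomal protein genes.

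Cx3cr1, the fractalkine receptor, varied least, with levels of 3337, 6494 and 4391 at 0, 4 and 24 h. It was 1.95-fold higher (1.86 to 2.03) at 4 h than at 0 h and 1.48-fold lower (1.42 to 1.54) at 24 h than at 4 h. At 24 h it was 1.32-fold higher (1.26 to 1.37) than at 0 h, a direction that reversed when libraries were scaled on ribosomal protein genes. The same scaling made it 2.16-fold lower at 24 h than at 4 h. With Ccr1 also passing, the split at 24 h against 0 h then became 1 higher and 2 lower of 5, against 1 and 1.

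The authors' deposited log2 fold changes are shrunken toward 0 and so smaller than the plain ratios. In the authors' deposited table of 4 h against 0 h, the values were 2.87 for Ccr2, 1.55 for Ccr1, 0.75 for Cx3cr1, -0.81 for Cxcr4 and -0.12 for Ccrl2. In the authors' deposited table of 24 h against 0 h, they were 1.41 for Ccr2, -1.34 for Ccrl2, -0.47 for Ccr1, 0.45 for Cxcr4 and 0.31 for Cx3cr1. In the authors' deposited table of 24 h against 4 h, they were -1.84 for Ccr1, -1.63 for Ccr2, -1.50 for Ccrl2, 1.20 for Cxcr4 and -0.42 for Cx3cr1. A deposited log2 value of at least 1 in size picks the same genes among the 5 as the 2-fold rule. It picks 17.9%, 2.68% and 17.4% of all genes in the tables of 4 h against 0 h, 24 h against 0 h and 24 h against 4 h. The authors' deposited table marks Ccr2 as significant in all 3 comparisons, Ccrl2 at 24 h against 0 h and Ccr1 at 24 h against 4 h, by an unadjusted DESeq2 p-value. Adjusting those DESeq2 p-values over all genes by Benjamini-Hochberg left 0 genes below 0.05 in any table, against 646, 399 and 558 before adjustment, in the same order of tables.

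**Figure D2:**
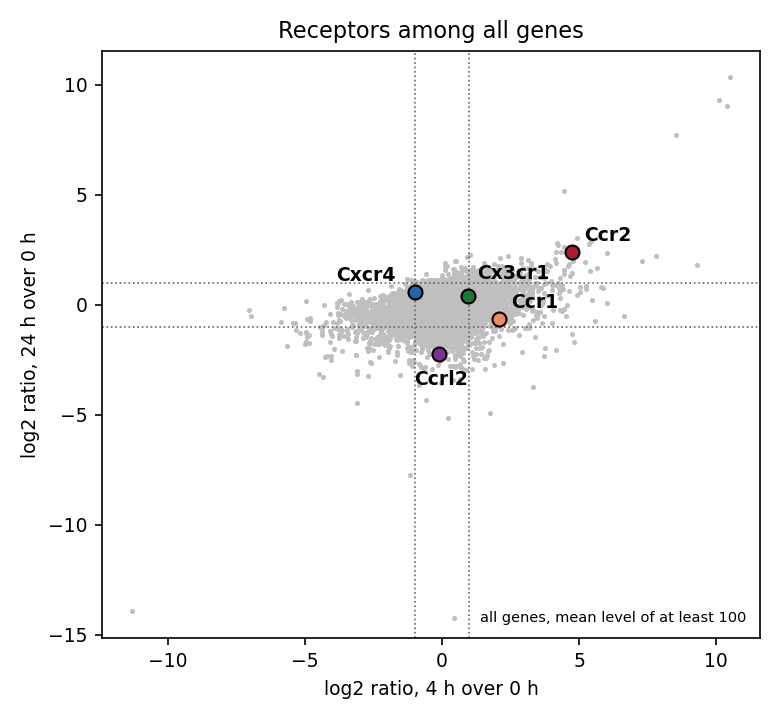
Log2 ratio at 4 h over 0 h (x axis) against log2 ratio at 24 h over 0 h (y axis) for 9906 genes with a mean level of at least 100 (grey) and the 5 receptors (coloured); both axes share the 0 h library, and dotted lines mark 2-fold. Ccr2 lies far to the upper right, Ccrl2 below the lower line and Cx3cr1 inside all 4 lines.

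The scatter of ratios places the receptors among all genes. The genes nearest to each receptor were found by the distance between these log2 ratio pairs over the 3 libraries, among 9246 genes. The nearest to Ccr2 was Ms4a4b at a distance of 0.0823, with levels of 26.1, 674 and 145 at 0, 4 and 24 h, and no other gene lay within 0.25. The next were Lcn2, Retnlg and Soat2. Lcn2 and Retnlg are also on the neutrophil marker list described below. For Ccr1 the nearest were Clec4d at 0.0959, Alpk1, Nfat5 and Tnfrsf14, among 15 genes within 0.25. For Ccrl2 they were Vps13d at 0.0810, Heg1, Dot1l and Fam38a, among 8. For Cxcr4 they were Haghl at 0.0327, Polr2i, Chchd5 and Uqcr11, among 87. For Cx3cr1 they were Fhl3 at 0.0245, Fcho2, Larp4 and Nsun4, among 220 genes. The receptors with wide ratios had few genes near them and those with small ratios had many.

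The make-up of the 5 transcripts differed between libraries. Levels between genes were compared as normalized counts per kb of transcript, with lengths of 2833, 2999, 3753, 1805 and 2459 bases for Ccr1, Ccr2, Cx3cr1, Cxcr4 and Ccrl2. At 0 h, Ccrl2 made up 50.9% of the summed level per kb and Cxcr4 26.2%, followed by Ccr1 with 10.8%, Cx3cr1 with 6.15% and Ccr2 with 6.01%. At 4 h, Ccr2 made up 57.7%, with Ccrl2 at 16.9%, Ccr1 at 16.3%, Cxcr4 at 4.79% and Cx3cr1 at 4.32%. At 24 h, Cxcr4 led with 40.4% and Ccr2 followed with 32.9%, ahead of Ccrl2 at 11.2%, Cx3cr1 at 8.35% and Ccr1 at 7.16%. On this scale a different receptor led in each library, but the lead at 24 h turned with the scale. By normalized count per gene Ccr2 led at 24 h as well as at 4 h, with 39.3% of the reads of the 5 genes at 24 h against 29.1% for Cxcr4. With the shortest annotated Ccr2 transcript, of 2265 bases, Ccr2 also led per kb at 24 h, with 6104 against 5668 normalized counts per kb for Cxcr4. The summed level of the 5 was 35253, 114519 and 35140 normalized counts at 0, 4 and 24 h, so the 24 h and 0 h sums were alike while their make-up was not.

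**Figure D3:**
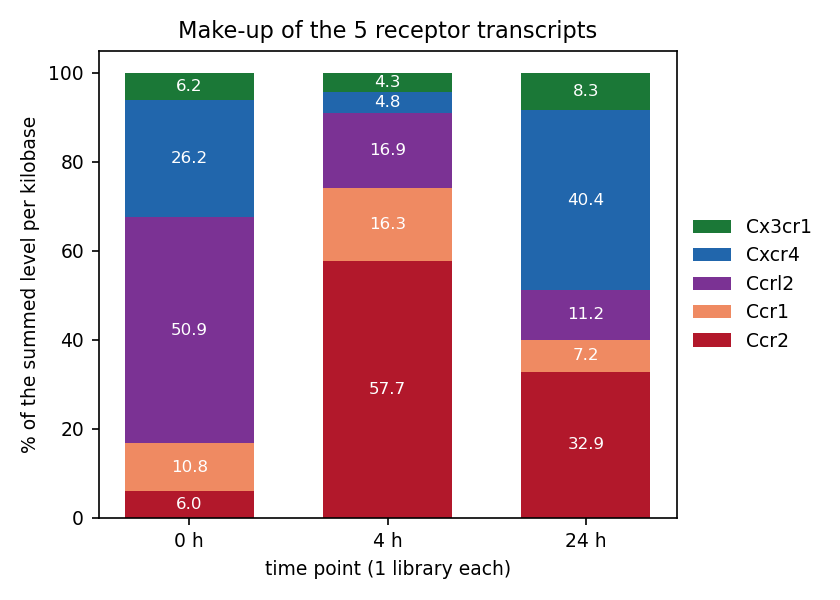
Share of each receptor in the summed level per kb of the 5 genes (percent), by time point, 1 library each. With a 2999-base Ccr2 transcript, Ccrl2 leads at 0 h with 50.9%, Ccr2 at 4 h with 57.7% and Cxcr4 at 24 h with 40.4%.

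Ratios within a library do not depend on the scaling between libraries. Per kb, the Ccr2 to Cx3cr1 ratio, a pair often used to separate classical from non-classical monocytes, was 0.976, 13.4 and 3.94 at 0, 4 and 24 h. The per-kb ratio of Ccr2 to Ccr1 was 0.558, 3.54 and 4.60. It was higher at 24 h than at 4 h, although both genes were lower at 24 h. The per-kb ratio of Ccrl2 to Ccr1 was 4.73, 1.03 and 1.56. Per read of Csf1r, there were 0.0868, 1.73 and 0.466 reads of Ccr2, 0.147, 0.463 and 0.0958 of Ccr1, and 0.228, 0.0865 and 0.345 of Cxcr4. On this scale too Ccr2 and Ccr1 were highest at 4 h and Cxcr4 was lowest there. Transcript length is a limit for these comparisons, since annotated Ccr2 transcripts range from 2265 to 5728 bases and Ccrl2 transcripts from 569 to 2459 bases.

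The ligands of the receptors were listed as 12 genes, of which 11 had a value. Rarres2, which encodes chemerin, had none. At 4 h against 0 h, 7 of 11 were called higher and 2 lower, with a median log2 ratio of 1.96. Over all genes 29.6% were called in either direction and the median log2 ratio was 0.00. Between 24 h and 4 h, 3 were higher and 7 lower, with a median of -2.54, and scaling on ribosomal protein genes left 1 higher and 7 lower. Between 24 h and 0 h, 1 was higher and 2 lower, with 1 and 5 under that scaling and 1 and 1 by total reads. These genes are transcripts of the same sorted cells, and ligand made by other lung cells was not measured.

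Among CCR2 ligands, Ccl2 had levels of 366, 3915 and 263 at 0, 4 and 24 h. Its ratio was 10.7-fold (9.62 to 11.9) at 4 h over 0 h, and at 24 h it was 14.9-fold lower than at 4 h. Ccl7 had 146, 757 and 89.6, and Ccl12 had 60.7, 395 and 57.5. All 3 were highest in the library where Ccr2 was highest. Unlike Ccr2, all 3 were near or below their 0 h level at 24 h.

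Among further inflammatory CC chemokines, which include the ligands of CCR1, Ccl5 had levels of 142, 6163 and 1063 at 0, 4 and 24 h. It was 43.4-fold higher (36.9 to 51.4) at 4 h and 7.49-fold higher (6.33 to 8.92) at 24 h than at 0 h. Ccl3 had 4062, 15557 and 1887, Ccl4 had 928, 8417 and 498, and Ccl9 had 9376, 36442 and 11350. Ccl3 and Ccl4 followed the order of Ccr1, highest at 4 h and lowest at 24 h. Ccl4 was 16.9-fold lower at 24 h than at 4 h, and Ccl3 was 2.15-fold lower at 24 h than at 0 h, or 1.92-fold, below the limit, by total reads. Ccl6 ran the other way, with 136100, 37381 and 113967, and was 3.64-fold lower at 4 h than at 0 h. It was 3.05-fold higher (3.01 to 3.09) at 24 h than at 4 h.

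Cx3cl1, the fractalkine gene, had levels of 1419, 206 and 518 at 0, 4 and 24 h. It was 6.90-fold lower at 4 h and 2.74-fold lower at 24 h than at 0 h, while its receptor Cx3cr1 was not called in either comparison. Cxcl12, the CXCR4 ligand, was low in all 3 libraries, with 53.2, 47.0 and 58.3, and the counting interval of every ratio included 1. Mif, whose product also binds CXCR4, had 293, 187 and 471. It was 2.52-fold higher (2.10 to 3.05) at 24 h than at 4 h, and 1.73-fold, below the limit, when scaled on ribosomal protein genes. Its other receptor chain Cd74 had 70035, 57949 and 61491 and was not called. Cmklr1, the signalling chemerin receptor, had 422, 2394 and 463. It was 5.67-fold higher (5.12 to 6.30) at 4 h than at 0 h and 5.17-fold lower at 24 h than at 4 h, so it was high in 1 library, while Ccrl2 was high in 2. Gpr1, a further chemerin receptor, had no value.

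Of 20 other chemokine receptor genes, 12 had a value, and 10 had one at 0 h. At 4 h against 0 h, 6 of 10 were called higher and 1 lower, with a median log2 ratio of 1.22. Of all genes, 15.2% were called higher and 14.3% lower in that comparison. Of all 12, 2 were higher and 6 lower at 24 h against 4 h, with a median of -0.66, or 1 and 6 when scaled on ribosomal protein genes. Of the same 10, 2 were higher and 1 lower at 24 h against 0 h, with 1 and 3 under that scaling. The median at 24 h against 0 h was -0.10, and 0.06 by total reads. Ccr4, Ccr6, Ccr8, Ccr10, Ccr1l1, Ackr1, Ackr4 and Pitpnm3 had no value.

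Ccr3, which marks eosinophils and lies between Ccr1 and Ccr2 on chromosome 9, had levels of 7.62 at 4 h and 21.4 at 24 h and no value at 0 h. Ccr7, which guides dendritic cells to lymph nodes, had levels of 138, 425 and 471 at 0, 4 and 24 h. It was 3.41-fold higher (2.84 to 4.11) at 24 h than at 0 h. Cxcr2, the neutrophil receptor for CXCL1 and CXCL2, had 138, 622 and 131, and Cxcr1 had 482, 43.2 and 183. Cxcr2 was 4.50-fold higher (3.74 to 5.45) and Cxcr1 11.2-fold lower at 4 h than at 0 h. Xcr1, a receptor of cross-presenting dendritic cells, had 90.6, 143 and 63.3. The other 6, Ccr9, Cxcr3, Cxcr5, Cxcr6, Ackr2 and Ackr3, had levels below 50 in every library, where counting error is wide.

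The plot of ligand and other receptor ratios sets these genes side by side, with wide intervals for those of few reads.

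**Figure D4:**
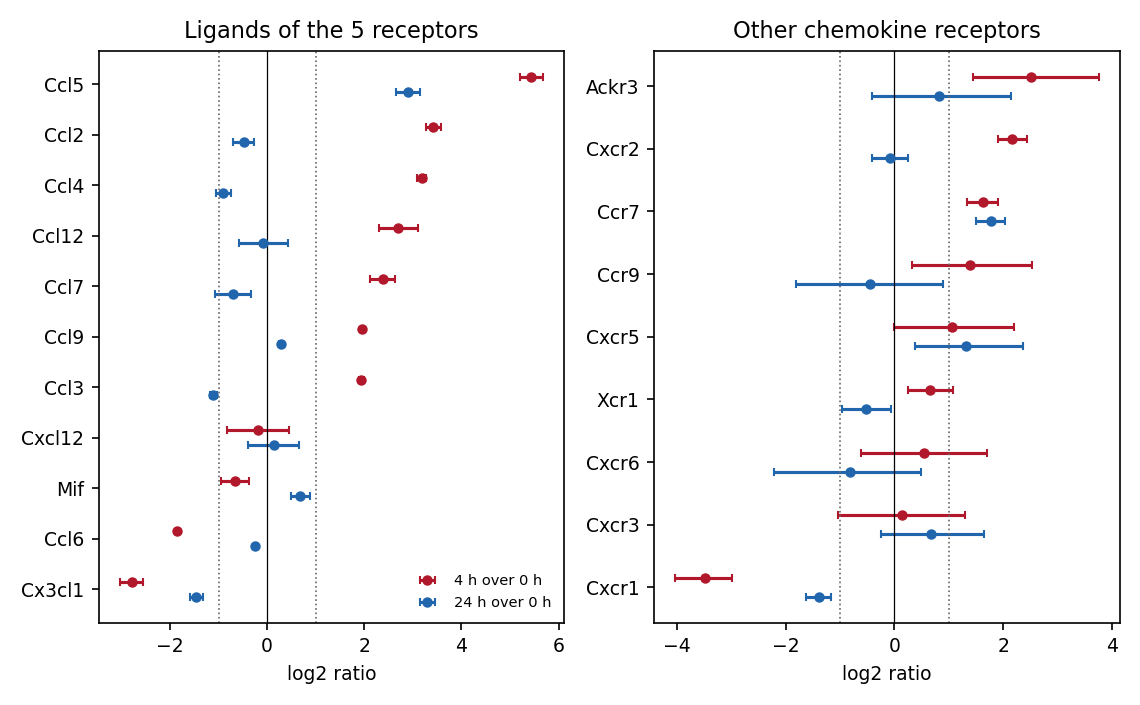
Log2 ratio at 4 h over 0 h (red) and 24 h over 0 h (blue), both against the same 0 h library, for ligand genes of the 5 receptors (left) and 9 other chemokine receptors (right); bars are 95% counting intervals and dotted lines mark 2-fold. At 4 h over 0 h, Ccl5 lies furthest to the higher side among ligands and Ackr3 among the receptors shown, with Cx3cl1 and Cxcr1 furthest to the lower side.

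Among receptors for other chemoattractants, 12 of 15 had a value. At 4 h against 0 h, 5 were called higher and 3 lower, with a median log2 ratio of 0.62, beside 29.6% of all genes called. Gpr183, the oxysterol receptor, had levels of 81.2, 604 and 304 at 0, 4 and 24 h, and was 7.44-fold higher (5.91 to 9.46) at 4 h than at 0 h. Ltb4r1, the leukotriene B4 receptor, had 288, 1107 and 846. C5ar1, the complement C5a receptor, had 9375, 4011 and 3997 and was 2.34-fold lower at 4 h than at 0 h. Ptafr, the receptor for platelet-activating factor, had 2017, 7493 and 307 and was 24.4-fold lower at 24 h than at 4 h. Like Ccr1, Ptafr was highest at 4 h and lowest at 24 h. At 24 h against 0 h, 3 were higher and 2 lower, or 2 and 5 when scaled on ribosomal protein genes.

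Of 26 genes that carry the signal inside the cell, 25 had a value. At 4 h against 0 h, 3 were called higher and 1 lower, beside 29.6% of all genes called in either direction. Jak2, a Janus kinase best known from cytokine receptors, had levels of 1689, 9815 and 2236 at 0, 4 and 24 h and was 5.81-fold higher (5.52 to 6.12) at 4 h than at 0 h. Plcb2, a phospholipase C driven by G protein beta-gamma subunits, had 7491, 2178 and 3694 and was 3.44-fold lower at 4 h than at 0 h. None was higher and 1 was lower at 24 h against 0 h, with 0 and 7 when scaled on ribosomal protein genes. None was higher and 3 were lower at 24 h against 4 h, with 0 and 11 on ribosomal protein genes and 2 and 2 by total reads. Of 20 genes for receptor desensitization and traffic, 2 were called higher and 0 lower at 4 h against 0 h. Rgs18, a regulator of G protein signalling, had 43.0, 807 and 281 and was 18.8-fold higher (13.9 to 25.9) at 4 h than at 0 h. Rgs2, of the same family, had 7057, 4487 and 12577 and was 2.80-fold higher (2.70 to 2.91) at 24 h than at 4 h, or 1.92-fold, below the limit, when scaled on ribosomal protein genes. Rgs2 and Cxcr4 shared the same order of libraries, lowest at 4 h and highest at 24 h.

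Markers of cell types that the gate could hold differed between the same libraries. Beside each list below, 15.2% of all genes were called higher and 14.3% lower at 4 h against 0 h. Of 13 classical monocyte markers, 12 were called higher and 0 lower at 4 h against 0 h, with a median log2 ratio of 3.23. Their summed level was 163732, 665120 and 121319 at 0, 4 and 24 h. Vcan, a matrix proteoglycan of classical monocytes, had 247, 55128 and 1134, and F13a1, which encodes a clotting factor subunit, had 1922, 96859 and 6063. At 24 h against 0 h, 9 were higher and 2 lower, or 7 and 4 when scaled on ribosomal protein genes, and at 24 h against 4 h, 0 were higher and 12 lower. Ccr2 was not on this list and showed the same order of libraries as Vcan and F13a1. That order was not shared by Fn1 and Clec4e, the 2 markers lower at 24 h than at 0 h, with Clec4e 2.07-fold lower. The summed level of the list was also lower at 24 h than at 0 h, unlike Ccr2. The part of monocytes in the Ccr2 and Ccr1 values was not tested.

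Of 12 non-classical monocyte markers, 0 were called higher and 1 lower at 4 h against 0 h, and their summed level was 133806, 137673 and 143670 at 0, 4 and 24 h. Klf2, a transcription factor of these cells, had 3157, 3422 and 11891, and Spn, which encodes CD43, had 7919, 3516 and 7468. Cx3cr1 was uncalled in every comparison at the main scaling. Of 19 alveolar macrophage markers with a value, 1 was higher and 15 lower at 4 h against 0 h, with a median log2 ratio of -1.97 and a summed level of 855661, 393904 and 496875. Most of this sum came from the single highest gene of each library, with 601110, 209378 and 310123. Krt19, a keratin gene on that list, had 10419, 80.0 and 8841, and Cidec, a lipid droplet gene, had 5586, 183 and 3583. Plet1, also on the list, had no value. Like Cxcr4, 11 of the alveolar macrophage markers were higher at 24 h than at 4 h, and 1 was lower. Between 24 h and 0 h they differed from Cxcr4: 0 were higher and 4 lower, with a median log2 ratio of -0.55, against 0.58 for Cxcr4. The part of alveolar macrophage transcripts in the Cxcr4 values was not tested. Of 16 interstitial macrophage markers, 6 were higher and 5 lower at 4 h against 0 h, with a summed level of 86335, 80165 and 101822. Tmem176b, a membrane protein gene on that list, had 1179, 4336 and 3479, and the mannose receptor gene Mrc1 had 40478, 15214 and 30008.

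Neutrophil markers also differed, although the sort excluded Ly6g-positive cells. Of 11 with a ratio, 10 were called higher and 1 lower at 4 h against 0 h, with a median log2 ratio of 2.52 and a summed level of 5514, 39777 and 8324 at 0, 4 and 24 h. Lcn2, which encodes an iron-sequestering lipocalin, had 158, 3481 and 979, and the collagenase gene Mmp8 had 1516, 15128 and 941. Elane and Mpo, which neutrophils transcribe mainly as precursors, and Ly6g, the gene of the antigen used in the sort, had no value. CCR1 and CXCR4 are also found on neutrophils, and the part of neutrophil RNA in the values was not tested. Dendritic cell markers, 7 of 8 with a value, summed to 1281, 4528 and 2173. T and NK cell markers, 10 of 12 with a value, summed to 191, 258 and 297, with no value for Cd3e. B cell markers, 4 of 6, summed to 38.3, 114 and 282. Only 1 of 8 eosinophil, basophil and mast cell markers had a value. The 9 epithelial markers summed to 15129, 15701 and 15268, within which the club cell gene Scgb1a1 had 90.6, 3977 and 105. The 8 endothelial and fibroblast markers summed to 893, 1789 and 1413.

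The plot of marker ratios sets the 5 receptors beside the monocyte, macrophage and neutrophil lists.

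**Figure D5:**
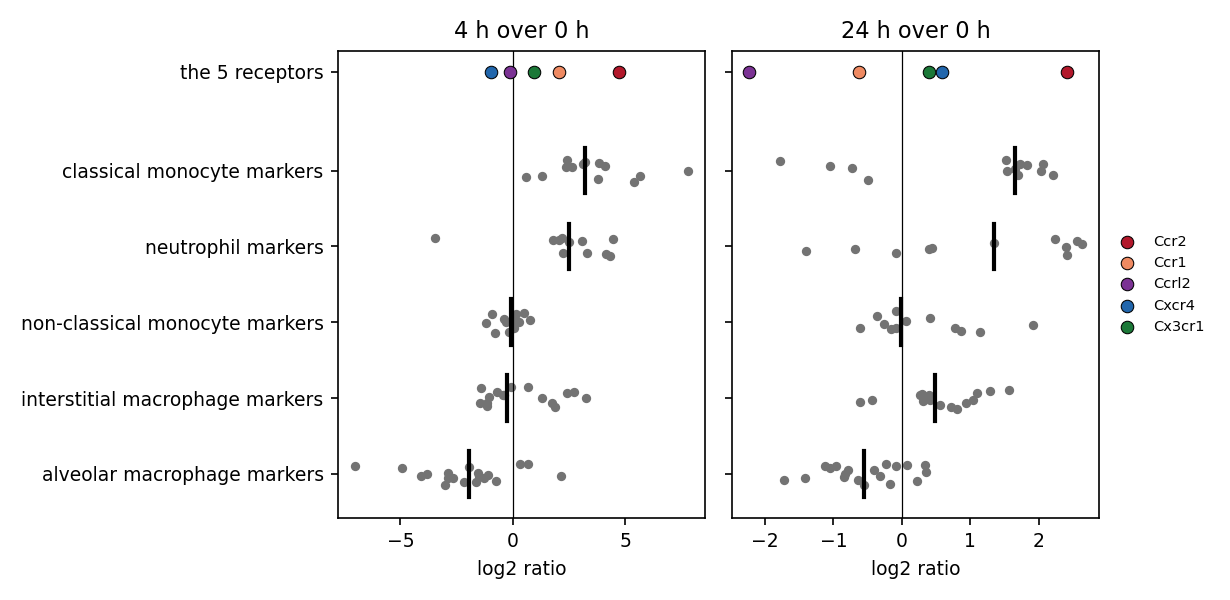
Log2 ratio of each marker with a ratio (grey), the median of its list (black bar) and the 5 receptors (coloured) at 4 h over 0 h (left) and 24 h over 0 h (right), both against the same 0 h library, with different x scales. At 4 h over 0 h the classical monocyte and neutrophil medians are 3.23 and 2.52, and the alveolar macrophage median is -1.97.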

How the data were processed

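Each of 3 tables by the authors compares a pair of libraries. The submitters' processing notes name DESeq2, without a version, and mm10. Aligner, counter, use of strand and gene annotation: not given in the sources used here. Deposited signal values are reads of a gene over a size factor of the table's pair. Within 0.001 reads, 100% of the values were whole multiples of their column's step, and whole reads were recovered from these. The deposited log2 fold changes set the later over the earlier library and are shrunken toward 0, and the deposited p-values are unadjusted, per the file headers and the values. No count model was fitted, since with 1 library per time no residual degrees of freedom are left.

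A single column of the table of 24 h against 0 h is headed 4 h. In 12310 of 12310 genes in common it holds the reads of the 0 h library, and in 66 of 12453 those of the 4 h library. It was given to no sample, and levels at 0 h were read from the other table that holds 0 h. The table of 24 h against 0 h also repeats 20 rows, which were dropped. Levels are recovered reads over median-of-ratios factors of 1.07 for 0 h, 0.788 for 4 h and 1.22 for 24 h. Ratios carry 95% Clopper-Pearson intervals, levels exact Poisson ones, and without molecular identifiers several reads may stem from 1 molecule. Python 3.11.15 and scipy 1.17.1 were used, and edgeR 4.0.16 only for trimmed-mean factors. The steps were tested on simulated data that held counting error only. Variation between animals was not simulated, so that test does not bear on how far the calls would repeat.

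The members and the 20 lists were chosen with earlier results of these data known. The genes named come from all members, all chemokine receptors and ligands listed, and the up to 2 genes each way past 2-fold from each other list, with a mean level of at least 100, or the most abundant where none passes. The sex-linked genes and the library checks were named after their values were seen. Some genes that the rule names are not reported here.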

Additional observations from a re-analysis of the deposited data

How the results depend on the processing

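Scaling by total reads, by trimmed mean of M values, by ribosomal protein genes and by the authors' own pair-wise factors was tried, with a pseudocount of 10, a minimum mean level of 100, thresholds of 1.5-fold and 4-fold, and the deposited log2 values. Of the counts of called receptors under these alternatives, 25 stayed within 1.5 times the reported count and 1 moved. Counts this small can stay within 1.5 times while a receptor gains or loses its call. Cxcr4 gained a call in this way at 4 h against 0 h by total reads. The count that moved was at 1.5-fold, where 4 of 5 receptors were called at 4 h against 0 h (3 higher, 1 lower), against 2 at 2-fold. The lower threshold lets in Cx3cr1 and Cxcr4, and it calls 25.4% of all genes higher and 23.7% lower. Of the receptor log2 ratios, 43 stayed inside their counting interval, 41 moved outside it with the same sign and 1 reversed: Cx3cr1 at 24 h against 0 h had a log2 ratio of -0.14 when scaled on ribosomal protein genes, against 0.40, and the cause was not tested. All 191 list medians moved, which had to be so, since a scaling shifts every log2 ratio of a comparison by the same amount. Of these, 22 changed sign, 12 of them at 24 h against 0 h. The 22 include the ribosomal protein list scaled on its own genes. On ribosomal protein genes the median at 24 h against 0 h became -0.06, against 0.48, for interstitial macrophage markers, -0.36, against 0.18, for receptor desensitization, and -0.45, against 0.09, for other chemoattractant receptors. That scaling moved the median log2 ratio of all genes by -0.54 at 24 h against 0 h and by -0.55 at 24 h against 4 h. Total reads moved it by -0.16, 0.17 and 0.32 at 4 h against 0 h, 24 h against 0 h and 24 h against 4 h. Genes called at 24 h against 0 h then split into 214 higher and 2990 lower by ribosomal protein genes and 895 and 885 by total reads, against 614 and 1131. Of the list counts, 168 stayed within 1.5 times and 23 moved. No paired analysis was possible because the groups share a single replicate number, with 1 library each, and for the same reason no library could be left out. The authors' factors for 24 h against 0 h were not run, since a column of that table belongs to no sample. Depth limits the receptors little, with 2729 reads or more for each, but it limits the low ligands and other receptors.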
